A study of Mus musculus with 24 samples.

Results

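Acute phase proteins are secreted proteins whose synthesis shifts during inflammation, and fat tissue makes several of them beside the liver. The 7 genes described here are Hp, Orm1, Saa3, Lcn2, Agt, Itih4 and Azgp1, read by 12 probes among 45281 on the array, out of 15195 genes tested. They were chosen by name as members of this class, and every probe that the array annotation maps to them was taken. The choice was made with the knockout results of the same arrays known, so the differences between knockout and control arrays are given for these genes as a description, with no test.

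RNA came from subcutaneous adipose tissue of C57BL/6J mice and was read on 24 Illumina BeadChip arrays, in 8 groups of 3. The knockouts are named Adn-C/EBPα-/- and Adn-PPARγ-/-, and each knockout group has its own control littermates. Adn-C/EBPα-/- mice and their controls had doxycycline chow for 3 days or a doxycycline high fat diet for either 3 days or 1 month. Adn-PPARγ-/- mice and their controls had the chow with doxycycline for 3 days. All groups, controls included, therefore had doxycycline, and the mice were 10 weeks old, or 14 weeks in both 1 month groups. The labels do not spell out Adn, do not name the promoter that drives the deletion and give no separate genotype for the controls. Separate animals are not stated for the replicates, and p-values therefore cover the spread among these arrays, which could be technical.

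The transcription factors C/EBPα and PPARγ together drive the formation of fat cells and hold their gene programme. In the liver, acute phase genes are switched on by interleukin 6 through STAT3, by interleukin 1 and tumour necrosis factor through NF-kB, and by members of the C/EBP family. The proteins have different tasks: haptoglobin (Hp) binds free haemoglobin, orosomucoid 1 (Orm1) carries lipids and drugs, serum amyloid A3 (Saa3) is a lipoprotein-associated protein made outside the liver in mice, and lipocalin 2 (Lcn2) withholds iron by binding bacterial siderophores. Angiotensinogen (Agt) is the precursor of the angiotensins, Itih4 is a heavy chain of the inter-alpha-trypsin inhibitor family, and Azgp1 encodes zinc-alpha-2-glycoprotein, a lipid-mobilising protein with the fold of major histocompatibility class I.

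No RefSeq promoter window of GRCm38.p6 was found for Hp or Orm1. For the other 5 of the 7 genes, windows ran from 250 bases before to 50 after the gene's start. They were searched on both strands for 4 short patterns: TTNNGNAA for C/EBP, TTCNNNGAA for STAT, GGG and CC with any 5 bases between them for NF-kB, and a pair of AGGNCA copies with 1 base between them for the PPAR/RXR direct repeat. These patterns are loose. Of 32851 windows in the table, 40.7% held the C/EBP pattern, 8.3% the STAT pattern, 50.8% the NF-kB pattern and 0.381% the PPAR/RXR pattern. The 250 bases before the start are printed for Saa3 and Lcn2, which were higher after PPARγ loss, and for Itih4, the gene that was higher in every knockout group, 5′ to 3′ on the gene's strand with matches to any of the patterns in capitals. Saa3 lies on chr7:46715677-46715926 (minus strand), Lcn2 on chr2:32387740-32387989 (minus strand) and Itih4 on chr14:30886226-30886475 (plus strand). The Saa3 window lies inside the annotated span of the gene, 46711998-46719615, so the start used for it is an internal one.
Saa3: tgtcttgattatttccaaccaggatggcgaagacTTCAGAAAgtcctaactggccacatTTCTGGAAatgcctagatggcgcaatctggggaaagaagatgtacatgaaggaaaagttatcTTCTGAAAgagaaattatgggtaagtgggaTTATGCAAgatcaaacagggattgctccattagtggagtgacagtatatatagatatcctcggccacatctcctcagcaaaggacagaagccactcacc
Lcn2: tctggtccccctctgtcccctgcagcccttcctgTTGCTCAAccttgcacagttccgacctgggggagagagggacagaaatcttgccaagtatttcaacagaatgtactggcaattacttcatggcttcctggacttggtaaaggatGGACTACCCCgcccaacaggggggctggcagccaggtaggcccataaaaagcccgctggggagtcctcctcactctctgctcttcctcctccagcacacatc
Itih4: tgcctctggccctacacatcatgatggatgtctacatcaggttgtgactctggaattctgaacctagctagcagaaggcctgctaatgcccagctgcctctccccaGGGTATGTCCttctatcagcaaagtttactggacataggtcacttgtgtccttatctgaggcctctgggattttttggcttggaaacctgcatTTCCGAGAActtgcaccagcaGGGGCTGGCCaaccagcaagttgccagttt

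The Saa3 window held 4 C/EBP matches, the first base of each at -216, -191, -129 and -99 from the start, and no match to the other patterns. The Lcn2 window held 1 C/EBP match from -216 to -209 and 1 NF-kB match from -102 to -93. The Itih4 window held no C/EBP match, 1 STAT match from -51 to -43 and 2 NF-kB matches that begin at -144 and -30. In the Agt window there were 1 STAT match and 2 overlapping NF-kB matches, and in the Azgp1 window 1 NF-kB match. Neither of these windows held a C/EBP match. The Azgp1 window is not printed, though this gene was also higher after PPARγ loss. None of the 5 windows held the PPAR/RXR pattern. A match is a run of letters and not a shown binding site.

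The values below are the deposited intensities, a linear measure of brightness in arbitrary units that still contains background. The authors' table is normalized within each set of 6 arrays, a knockout group and its controls, so levels are compared only within a set. Log2 differences are knockout minus control with the fitted standard error from limma (n = 3 arrays a group), after background correction and an offset of 16 units, which understates the change of dim genes. Background was near 131 units for C/EBPα on chow, 113 for PPARγ, and 103 and 107 for C/EBPα at 3 days and 1 month of high fat diet. Between 52.9% and 60.3% of probes were above background. Arrays of a group correlated with a median r of 0.994 over the tested probes of the 15195 genes.

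The 7 genes did not move as a block. Hp and Itih4 kept opposite directions across all 4 knockouts, Hp lower and Itih4 higher in every knockout group without overlap of the arrays on the tested probes. Saa3, Lcn2 and Azgp1 were higher after PPARγ loss, while in the 3 C/EBPα knockouts Azgp1 was level or slightly lower, Saa3 ran from 0.56 ± 0.27 on chow to -0.80 ± 0.27 at 1 month, and Lcn2 differed in direction between the sets. Orm1 was lower after C/EBPα loss under high fat diet and level in both knockouts on chow. The knockout and control arrays of Agt overlapped in every set.

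Haptoglobin was lower in all 4 knockout groups, most of all with C/EBPα loss under high fat diet. On chow its control arrays read 9424, 12581 and 18009 and the C/EBPα knockout arrays 7960, 8694 and 9193. Every knockout array lay below every control array, but the highest knockout and the lowest control were only a small distance apart, and the log2 difference was -0.59 ± 0.19. After 3 days of high fat diet the controls read 15864, 19803 and 14792 against 7696, 6245 and 6739 in the knockouts, a difference of -1.29 ± 0.19. After 1 month the controls read 16110, 15630 and 18526 against 3491, 5251 and 3330 (-2.11 ± 0.19, 4.32-fold lower). The groups are well apart in both high fat diet sets. In the PPARγ set the controls read 18658, 20172 and 23761 and the knockouts 16376, 15840 and 16968, lower in each array but by only -0.34 ± 0.19. The other 2 Hp probes gave -0.70 and -0.70 on chow, -1.48 and -1.24 at 3 days, -2.05 and -2.02 at 1 month, and -0.52 and -0.49 after PPARγ loss, with overlapping arrays on ILMN_2668509 in both chow sets.

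Orosomucoid 1 arrays separated in both high fat diet sets and overlapped in both chow sets. On chow the C/EBPα controls read 4916, 5843 and 6701 and the knockouts 5228, 5730 and 5450, so that the knockouts fell inside the range of the controls (-0.08 ± 0.13). The PPARγ controls read 5313, 5813 and 5067 and the knockouts 5289, 5340 and 5166, again inside it (-0.03 ± 0.13). At 3 days of high fat diet the controls were at 8154, 9097 and 8268 and the C/EBPα knockouts at 4526, 5130 and 3380 (-1.004 ± 0.13). At 1 month, controls at 9562, 9541 and 10814 stood against knockouts at 1727, 1565 and 1462 (-2.73 ± 0.13, 6.62-fold lower). No array of either high fat diet knockout reached its controls. Orm1 has close copies, Orm2 and Orm3, and whether its probe binds their cRNA was not tested.

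Itih4 was the mirror image of Hp. Its chow control arrays read 416, 361 and 269 and the C/EBPα knockouts 553, 541 and 573 (0.97 ± 0.17). After 3 days of high fat diet they were 167, 179 and 188 in controls and 357, 339 and 356 in knockouts (1.55 ± 0.17). At 1 month they were 156, 146 and 146 against 490, 478 and 619 (2.91 ± 0.17, 7.50-fold higher). All knockout arrays lay above all control arrays in each of these sets. PPARγ loss gave the smallest difference, with controls at 200, 206 and 205 and knockouts at 265, 277 and 249 (0.65 ± 0.17). The other 2 Itih4 probes gave 1.04 and 0.81 on chow, 1.62 and 1.20 at 3 days, and 2.89 and 2.58 at 1 month, but only 0.26 and 0.33 after PPARγ loss. Arrays overlapped on both after PPARγ loss, and on ILMN_2797276 in the chow C/EBPα set as well. The 1 month controls were dim, at 146 to 156 against a background near 107 units. On ILMN_2797276 only 2 of these 3 control arrays were above background.

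**Figure D1:**
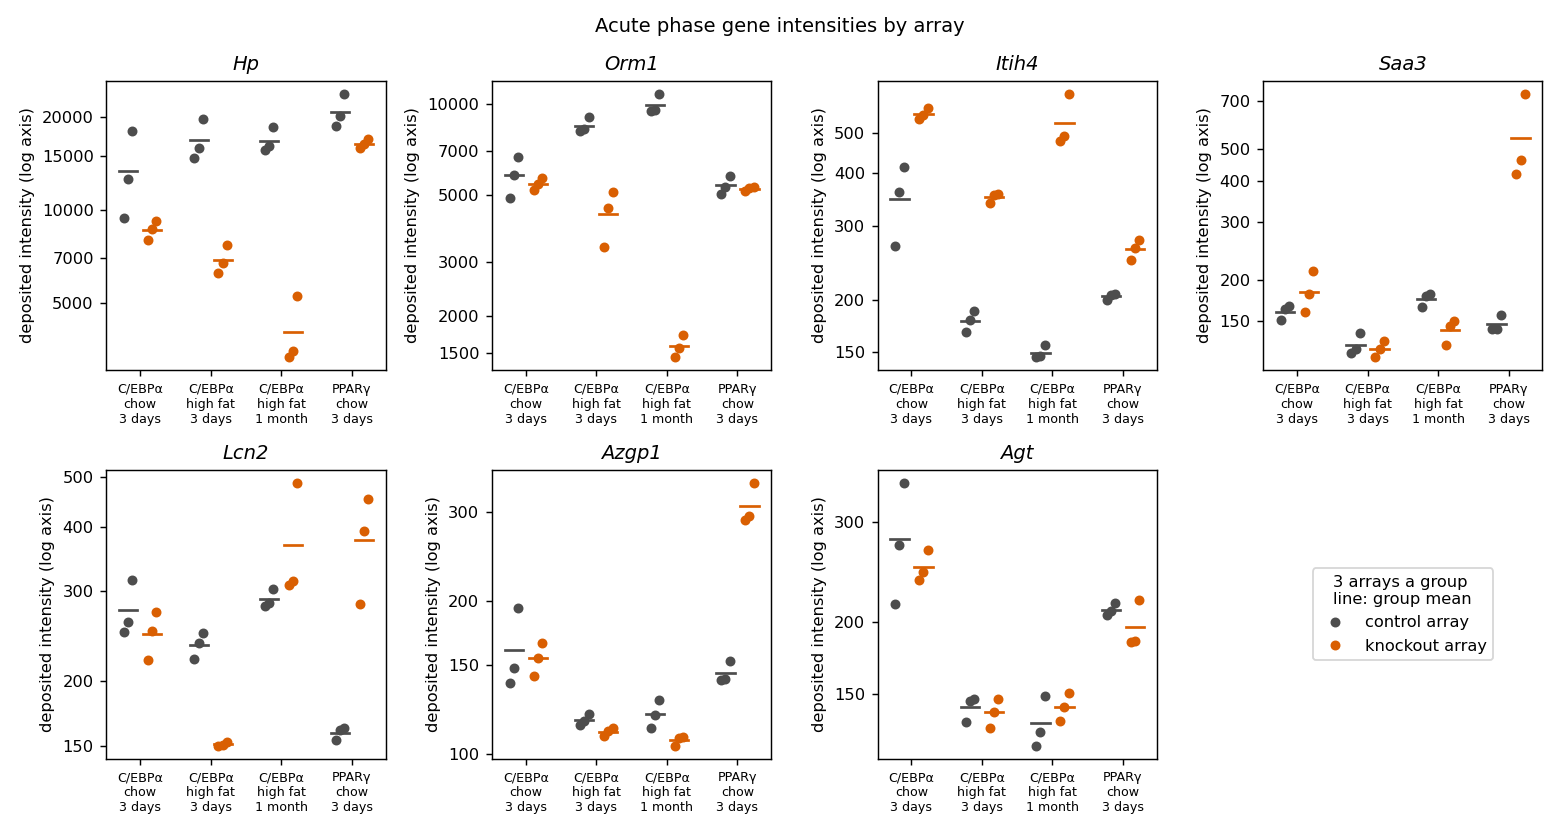
Deposited intensity (arbitrary units, log axis) of the tested probe of each gene in each array, by set of 6 arrays: points are arrays, lines group means of 3, grey controls, orange knockouts; levels are comparable only within a set. Hp and Orm1 separate most at 1 month of high fat diet, Itih4 lies above its controls in all 4 sets, and Saa3, Lcn2 and Azgp1 stand above their controls in the PPARγ set.

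Saa3 differed between the 2 knockouts on chow. In the PPARγ set the controls read 142, 142 and 157 and the knockouts 464, 735 and 421, a log2 difference of 3.10 ± 0.27, or 8.56-fold. The C/EBPα chow controls read 151, 164 and 167 and the knockouts 214, 160 and 181, so the arrays overlapped (0.56 ± 0.27). High fat diet for 3 days gave overlapping arrays too, with controls at 123, 138 and 120 and knockouts at 130, 117 and 124 (-0.13 ± 0.27). At 1 month the controls read 180, 182 and 166 and the knockouts 127, 145 and 150, lower in each array (-0.80 ± 0.27). The Saa3 probe was above background in all arrays. Its control arrays lay near that level on chow and at 3 days of high fat diet, and further above it at 1 month, at 166 to 182 against 107.

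Lipocalin 2 was higher after PPARγ loss, lower with C/EBPα loss at 3 days of high fat diet, and overlapped with its controls on chow. The PPARγ controls read 163, 154 and 161 and the knockouts 393, 453 and 283 (2.12 ± 0.22, 4.35-fold higher). On chow, C/EBPα controls at 250, 261 and 314 overlapped with knockouts at 272, 220 and 250 (-0.27 ± 0.22). At 3 days of high fat diet the controls were at 249, 237 and 221, and the C/EBPα knockouts at 150, 152 and 150, lower by a wide gap (-1.22 ± 0.22). At 1 month the controls read 280, 303 and 285 and the knockouts 314, 486 and 307, all above them (0.43 ± 0.22). The 1 month value rests largely on knockout replicate 2, at 486, and is 0.15 without it.

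Azgp1 was dim throughout. In the PPARγ set its tested probe read 153, 140 and 141 in controls and 295, 343 and 290 in knockouts (2.16 ± 0.29), with every knockout array above every control. The second probe, ILMN_2725198, read 119, 121 and 122 in the same controls and 136, 130 and 128 in the knockouts, the same direction with a smaller difference of 0.52 ± 0.13. C/EBPα loss on chow gave controls at 194, 138 and 148 and knockouts at 155, 143 and 166, which overlap (-0.06 ± 0.29). The high fat diet values were close to background: 116, 114 and 120 against 112, 108 and 111 at 3 days (-0.32 ± 0.29), and 128, 112 and 119 against 108, 108 and 104 at 1 month. At 1 month 0 knockout arrays and only 2 of the 3 control arrays were above background by either probe. The lower bound of the fold, 1.24 by this probe and 1.01 by the second, therefore includes a control at background. No firm decrease is read from it. The second probe overlapped in both high fat diet sets, at -0.16 ± 0.13 and -0.15 ± 0.13.

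Angiotensinogen showed no separation in any comparison. Its chow controls read 273, 215 and 351 against 267, 245 and 237 in the C/EBPα knockouts (-0.21 ± 0.24), and its PPARγ controls 209, 206 and 216 against 184, 186 and 219 (-0.21 ± 0.24). After 3 days of high fat diet the controls read 134, 147 and 146 and the knockouts 131, 147 and 140 (-0.09 ± 0.24), and at 1 month 129, 122 and 149 against 142, 150 and 134 (0.33 ± 0.24). A difference smaller than the spread of the arrays was not detectable here.

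**Figure D2:**
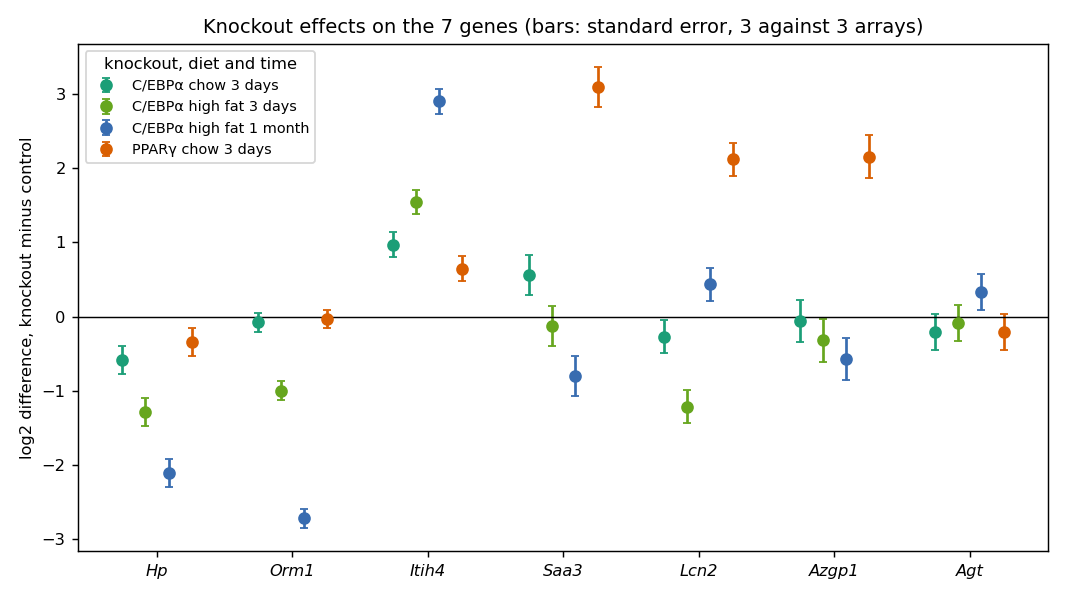
Log2 difference, knockout minus control (vertical axis), for the 7 genes in the 4 knockout comparisons; points are fitted differences and bars standard errors, 3 against 3 arrays. Saa3, Lcn2 and Azgp1 are at 3.10, 2.12 and 2.16 after PPARγ loss, while Hp and Orm1 reach -2.11 and -2.73 and Itih4 2.91 in the C/EBPα knockout at 1 month of high fat diet.

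Read across the set, all knockout arrays lay above all controls for 1 of the 7 genes and below for 1 with C/EBPα loss on chow, where 9.46% and 8.1% of all genes did so. The counts were 4 and 1 in the PPARγ set (16.3% and 12.9% of all genes), 1 and 4 at 3 days of high fat diet (8.76% and 9.38%) and 2 and 4 at 1 month (17.3% and 15.6%). The median log2 difference of the 7 genes was -0.08, 0.65, -0.32 and -0.58 in these 4 comparisons, and that of all genes 0.00 to 0.01. Since the genes were chosen on these comparisons, nothing is read from the counts.

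Matched for diet and time, the C/EBPα effect minus the PPARγ effect on chow was -2.54 ± 0.38 for Saa3, -2.39 ± 0.31 for Lcn2 and -2.22 ± 0.41 for Azgp1. For Itih4 it was 0.32 ± 0.24, for Hp -0.25 ± 0.27 and for Orm1 -0.05 ± 0.18. For Agt the effects were alike, at -0.21 in both. The Hp and Itih4 values on chow rest partly on C/EBPα control replicate 3, which had the highest Hp and the lowest Itih4 of its group: without it the C/EBPα chow differences were -0.34 for Hp and 0.69 for Itih4, next to -0.34 and 0.65 after PPARγ loss. The small chow differences of Orm1 and Agt changed sign without that array, to 0.03 and 0.10, and that of Azgp1 ran from -0.41 to 0.43 as arrays were left out. Cebpa itself was lower in both chow knockouts, with 48.3% of its corrected signal left after C/EBPα loss and 37.5% after PPARγ loss. The chow contrast therefore compares 2 knockouts, and does not set loss of 1 factor alone against loss of the other.

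A list of 40 other acute phase genes gives the wider class, and its members were tested. Of its 27 tested genes, 0 passed limma (Benjamini-Hochberg adjusted p under 0.05) after C/EBPα loss on chow, where 1 higher and 2 lower were at an unadjusted p under 0.05, and 0.52% of all genes were called in each direction. After PPARγ loss 4 rose and 0 fell, where 4.36% and 4.38% of all genes were called in each direction. At 3 days of high fat diet 3 rose and 2 fell (0.757% and 1.43% of all genes), and at 1 month 5 rose and 5 fell (8.94% and 8.1%). At an unadjusted p under 0.05 in limma, 10 were higher and 0 lower after PPARγ loss. These counts were 4 and 4 at 3 days of high fat diet and 6 and 7 at 1 month. A fit on the 6 arrays of the 3 day set alone called 0 of the list. The median log2 differences of the list were -0.08, 0.26, -0.08 and -0.02.

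Orm2, a close copy of Orm1, was lower like Orm1 with C/EBPα loss under high fat diet; the difference between the 2 genes was not tested. Orm2 rose after PPARγ loss from 233 ± 4.40 to 336 ± 16.9 units (0.81 ± 0.14, adjusted p = 0.000899 in limma), where the Orm1 arrays overlapped (-0.03). With C/EBPα loss under high fat diet Orm2 fell by 0.88 ± 0.14 at 3 days (adjusted p = 0.00119) and by 2.00 ± 0.14 at 1 month (adjusted p = 2.94e-09), next to -1.004 and -2.73 for Orm1. Serpina3n, a serine protease inhibitor, rose after PPARγ loss (0.83 ± 0.18, adjusted p = 0.00546) and fell at 1 month of C/EBPα loss on high fat diet (-0.89 ± 0.18, adjusted p = 0.00143). Cd14, a co-receptor for bacterial lipopolysaccharide, rose after PPARγ loss (1.04 ± 0.11, adjusted p = 2.91e-06) and with C/EBPα loss under high fat diet at 3 days (0.58 ± 0.11, 0.00355) and at 1 month (0.96 ± 0.11, 1.59e-06). With C/EBPα loss on chow every Cd14 knockout array was also above its controls, but the gene was not called (0.39 ± 0.11, adjusted p = 0.0762 in limma).

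The lipopolysaccharide binding protein gene Lbp fell at 1 month of high fat diet from 1655 ± 146 to 858 ± 214 units (-1.06 ± 0.18, adjusted p = 0.000277), and Lrg1, a leucine-rich glycoprotein, from 9418 ± 781 to 5215 ± 154 (-0.86 ± 0.13, 4.13e-05). Serpina1b, an alpha-1-antitrypsin gene with close copies that a probe may not tell apart, fell by 4.90 ± 0.66 there (adjusted p = 1.73e-05), from control arrays that varied widely (2719 ± 2209 units). The complement gene C4b (0.83 ± 0.11) and metallothionein Mt1 (0.40 ± 0.10) rose at 1 month, and Mt1 also at 3 days (0.53 ± 0.10). Serping1, the inhibitor of complement C1, was called in the PPARγ set and at 1 month (0.33 ± 0.10 in both), but lost both calls when 1 of several arrays was left out. The calls of Cp and C4b at 3 days and of Vtn at 1 month were also lost in most such fits, and Cp's other 3 probes gave -0.02, -0.26 and 0.17 against -0.67.

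A test of the difference between the C/EBPα and PPARγ effects on chow, in the same limma fit, called 4 of the 27 genes. In each the C/EBPα effect lay below the PPARγ effect, where 1.61% of all genes were called higher and 1.16% lower. The C/EBPα and PPARγ effects were -0.11 and 0.81 for Orm2, -0.23 and 0.83 for Serpina3n, and -0.50 and 0.36 for Cfb. For Cd14 both were higher, at 0.39 and 1.04. The difference was -0.91 ± 0.20 for Orm2 (adjusted p = 0.0178), -1.07 ± 0.26 for Serpina3n (0.0283), -0.65 ± 0.15 for Cd14 (0.0223) and -0.86 ± 0.23 for the complement factor gene Cfb (0.0457). The calls of Serpina3n, Cd14 and Cfb were lost when 1 array was left out, in 5, 2 and 10 of 12 such fits (adjusted p up to 0.0777, 0.0725 and 0.114). The Orm2 call was not lost in any of the 12, and 1 gene of the list was called without PPARγ control replicate 2.

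**Figure D3:**
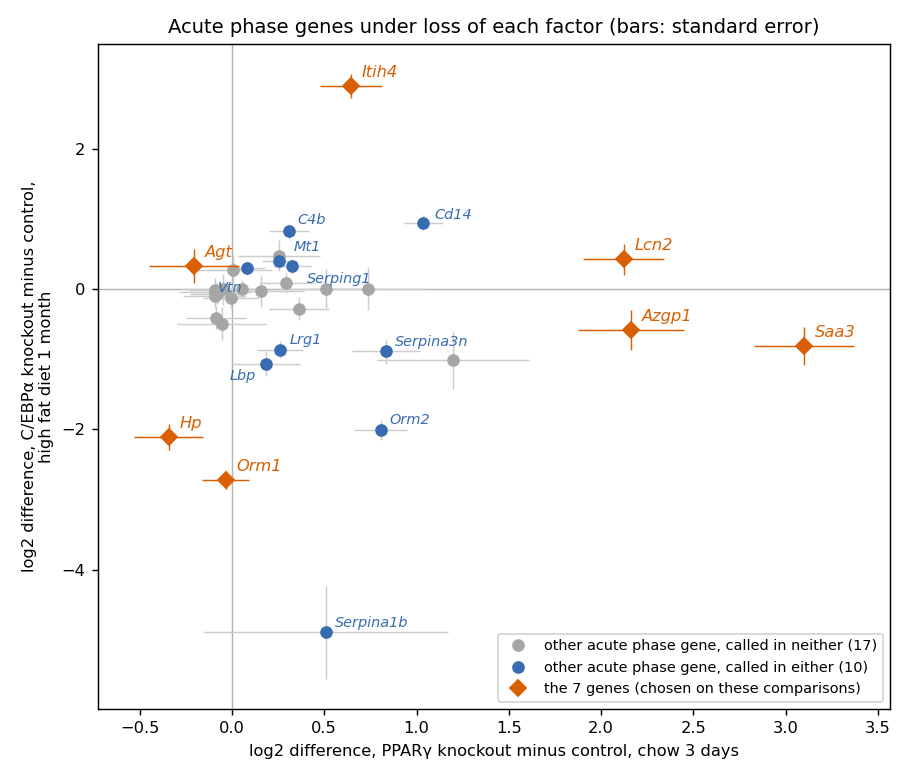
Log2 difference, knockout minus control, after PPARγ loss on chow (horizontal) and after C/EBPα loss at 1 month of high fat diet (vertical); bars are standard errors, blue points are listed acute phase genes called in either comparison, grey points genes called in neither, orange diamonds the 7 genes. Orm2, at 0.81 and -2.001, lies above and to the right of Orm1, and Itih4 stands alone at the top; diet and time differ between the axes.

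Proteins that fall during inflammation in the liver, tested for 6 of 8 genes, had 0 called members with C/EBPα loss on chow, with 0 higher and 2 lower at an unadjusted p under 0.05 in limma. Transferrin (Trf) fell by 1.30 ± 0.15 at 1 month of high fat diet (adjusted p = 1.94e-06 in limma), and its call at 3 days (-0.59 ± 0.15) was lost in 5 of 6 fits with 1 array left out. The retinol binding protein gene Rbp4 fell by 0.90 ± 0.28 at 1 month, a call lost in 4 of 6. Serpina6, the corticosteroid binding globulin, was above background in the 3 PPARγ knockout arrays alone, at least 1.68-fold higher than in their controls. It passed the filter through those arrays, so no test is read from it. Beside it, 0 of these genes were called higher in any of the 4 comparisons. After PPARγ loss 0 were called lower, and 1 was at 3 days and 2 at 1 month of high fat diet, where 4.38%, 1.43% and 8.1% of all genes were called lower. At an unadjusted p under 0.05 in limma, 3 were lower after PPARγ loss and 1, Serpina6, higher. Rbp4 was among the lower, at -0.83 ± 0.28 with every knockout array below its controls, while its arrays overlapped at 1 month.

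Genes of the cytokine signals that drive the acute phase in the liver were tested for 29 of 31. With C/EBPα loss on chow 0 rose and 1 fell (0.52% of all genes in each direction). After PPARγ loss 3 rose and 1 fell (4.36% and 4.38%), and 11 were higher and 1 lower at an unadjusted p under 0.05. At 3 days of high fat diet 1 rose and 1 fell (0.757% and 1.43%), as at 1 month (8.94% and 8.1%). The fallen gene was the kinase gene Jak1 each time (-0.78, -0.76, -0.73 and -1.33 ± 0.14), but its other 2 probes did not show it, at 0.03 and 0.02, 0.28 and 0.26, -0.01 and 0.29, and 0.09 and -0.29, and its 3 day call was lost without knockout replicate 3. Stat3, the factor of the interleukin 6 response, was at 0.00, 0.14, 0.00 and 0.10 ± 0.11 and was not called, nor were Cebpb (-0.09, 0.30, 0.02 and 0.05 ± 0.12) and Cebpd (0.04, 0.34, -0.06 and 0.38 ± 0.13). After PPARγ loss the tumour necrosis factor receptor gene Tnfrsf1b (0.58 ± 0.16) and the glucocorticoid-responsive genes Fkbp5 (0.95 ± 0.19) and Tsc22d3 (0.64 ± 0.13) rose, the first losing its call in 4 of 6 fits with 1 array left out. The other 2 Tsc22d3 probes gave 0.69 and -0.24. The gene that rose at 3 days was Fkbp5 (0.81 ± 0.19, also lost in 4 of 6). Socs3, a feedback inhibitor of cytokine signals, rose at 1 month (0.70 ± 0.15, adjusted p = 0.00226 in limma). Il6 itself was below the filter on dim probes.

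Beside Agt, the renin-angiotensin list had 12 of 16 genes tested and 0 called by limma with C/EBPα loss on chow, with PPARγ loss or at 3 days of high fat diet, with 2, 3 and 2 higher and 0 lower at an unadjusted p under 0.05. At 1 month 6 of the 12 rose and 0 fell, where 8.94% and 8.1% of all genes did. These were the angiotensin converting enzyme gene Ace (0.60 ± 0.12), the peptidase genes Anpep (0.94 ± 0.14) and Mme (0.72 ± 0.14), the prorenin receptor gene Atp6ap2 (0.29 ± 0.08), and Cma1 (1.30 ± 0.21) and Ctsg (0.53 ± 0.16), which encode mast cell and neutrophil proteases. The other 3 Mme probes gave 0.72, 0.55 and -0.18. Atp6ap2 and Ctsg lost their calls in 3 and 4 of 6 fits with 1 array left out.

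Of 12 tested receptors and partners of these proteins, 0 changed on chow with C/EBPα loss and 0 at 3 days of high fat diet, with 1 higher and 0 lower, and 0 higher and 1 lower, at an unadjusted p under 0.05 in limma. After PPARγ loss Hmox1, the haem oxygenase, rose by 0.86 ± 0.22, Lrp1, a scavenger receptor, by 0.52 ± 0.13 and Tlr2, a serum amyloid receptor, by 0.51 ± 0.15, while the lipoprotein receptor gene Scarb1 fell by 0.51 ± 0.13 (-0.08 by its other probe). These were 3 of 12 higher and 1 lower, where 4.36% and 4.38% of all genes were called. Each of these 4 calls was lost in at least 2 of 6 fits with 1 array left out, that of Tlr2 in all 6. At 1 month 4 rose and 0 fell, beside 8.94% and 8.1% of all genes: Tlr2 (0.73 ± 0.15), the formyl peptide receptor gene Fpr2 (0.82 ± 0.26, lost in 4 of 6), Mmp9 (0.83 ± 0.20), whose protein binds lipocalin 2, and the haptoglobin receptor gene Cd163 (0.60 ± 0.13), whose other probe gave -0.02.

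Over all 24 arrays, after subtracting each set's mean, Hp followed Orm1 (Pearson's r = 0.916) and ran against Itih4 (-0.971), while Saa3 followed Azgp1 (0.791) and Lcn2 (0.746). Agt lay between -0.29 and 0.03 with each of the other genes. These values are descriptions over 24 arrays that still contain the knockout effects. The genes most like each member by the same measure were Mocs1, Ccnd2 and Hacd1 for Hp (0.962, 0.958 and 0.957) and Myl4, Cdo1 and Apcdd1 for Orm1 (each 0.971). They were Sfrp1, Hpgd and Pdia5 for Itih4 (0.940, 0.940 and 0.937), Slc7a8, Cyp4f14 and Smim41 for Saa3 (0.907, 0.902 and 0.902), and Eif2s2, Tctn3 and Dynlrb2 for Lcn2 (0.842, 0.812 and 0.811). For Azgp1 they were Cyp4f14, Bicd2 and Saa3 (0.837, 0.806 and 0.791), and for Agt Ust, Gpr45 and Sec22b (0.723, 0.714 and 0.684).

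The control arrays alone leave the knockouts out. Over the 12 controls, each centred on its own group of 3, an exact permutation test within groups (1296 orders, two-sided) was run for the 21 pairs of genes. Lcn2 and Itih4 ran in opposite directions (Pearson's r = -0.930, exact p = 0.00154, adjusted p = 0.0324; Spearman's rho = -0.881, exact p = 0.00231, adjusted p = 0.0486). Without the 2 arrays farthest from the median r was -0.798, and without the chow C/EBPα controls -0.770. The other 20 pairs did not pass. Hp and Itih4, opposite under knockout, gave r = -0.769 (exact p = 0.137, adjusted p = 0.493; rho = -0.448, exact p = 0.284, adjusted p = 0.570), which fell to -0.107 without the 2 farthest arrays and so rests on them. Hp and Orm1 gave r = 0.7996 (exact p = 0.0633, adjusted p = 0.365; rho = 0.594, exact p = 0.103, adjusted p = 0.489), and 0.407 without them.

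**Figure D4:**
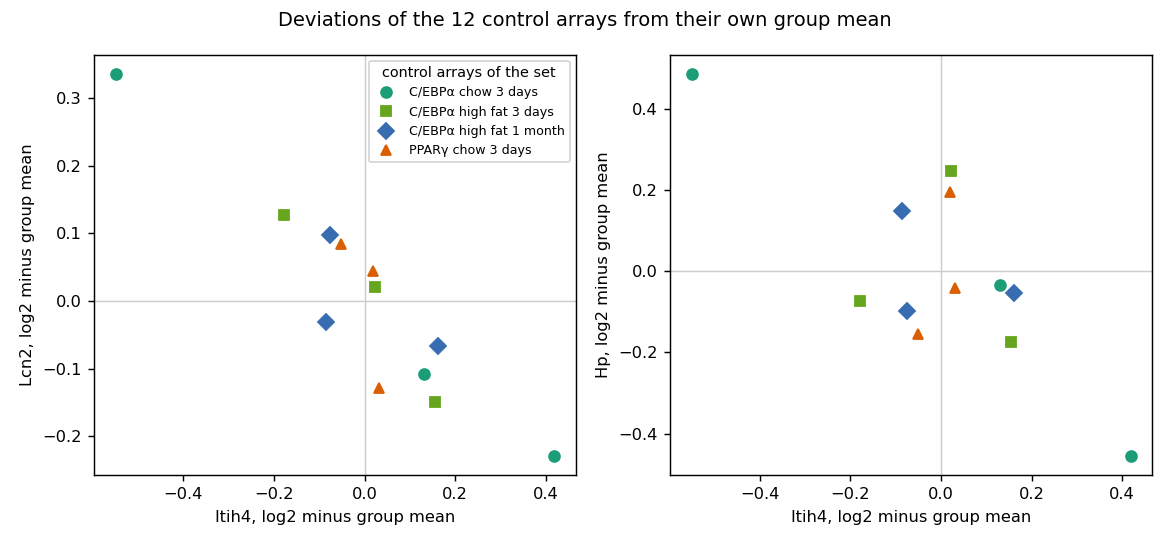
Log2 signal of the 12 control arrays minus the mean of their own group of 3, Lcn2 against Itih4 (left) and Hp against Itih4 (right), with colour and shape giving the set. Lcn2 is low where Itih4 is high (r = -0.930), while the relation of Hp rests on 2 chow C/EBPα arrays at the ends (-0.769, or -0.107 without them).

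Adipocyte markers moved with several of these results, and in RNA of whole tissue fewer adipocytes and less RNA per adipocyte cannot be told apart. Of 13 adipocyte markers tested, 1 fell with C/EBPα loss on chow, 11 with PPARγ loss, and 3 and 13 at 3 days and 1 month of high fat diet, where 0.52%, 4.38%, 1.43% and 8.1% of all genes did. Their summed signal went from 111463 to 123583 units in the 1 month controls and from 73373.5 to 82418.4 in the knockouts, where Retn was at background, and from 107556 to 117118 in the PPARγ controls and from 80742.5 to 82760.7 in the knockouts. Both sums are lower, but single markers differed between the 2 knockouts. At 1 month and after PPARγ loss, Retn was at -2.84 and -1.24, and Lipe at -0.43 and -1.26. Hp was at -2.11 and -0.34, and Orm1 at -2.73 and -0.03. The part of adipocyte content in these values was not tested. Macrophage markers rose for 5 of 10 after PPARγ loss and 9 of 10 at 1 month (4.36% and 8.94% of all genes), with sums of 19002 to 21184 against 23989 to 28780 and of 18985 to 21081 against 31696 to 42120. With C/EBPα loss on chow and at 3 days of high fat diet 0 of the 10 were called (0.52% and 0.757% of all genes higher). At an unadjusted p under 0.05 in limma, 1 and 3 were higher. The sums there were 23784.5 to 27261 in controls against 28726 to 30514, and 17420 to 23547 against 20603 to 26874.5. The part of macrophages in the higher Saa3 and Lcn2 was not tested.

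Lcn2 is also a neutrophil granule protein. Of 11 neutrophil markers tested, 2 rose and 0 fell after PPARγ loss (4.36% and 4.38% of all genes), Prtn3 (2.81 ± 0.21, from 566 to 3418 units) and Camp (1.26 ± 0.34, lost in 4 of 6 fits with 1 array left out). The summed signal was 707 to 802 in the controls and 3322.5 to 4478 in the knockouts, most of it from Prtn3. At an unadjusted p under 0.05 in limma, 4 of the 11 were higher and 1 lower. Mpo and Cxcr2 were at background in all arrays of both groups, and Camp and Ngp in the control arrays. With C/EBPα loss at 3 days of high fat diet, where Lcn2 was lower, Prtn3 rose too (1.98 ± 0.21) as the 1 called marker of the 11 (0.757% of all genes higher and 1.43% lower), and the summed signal was 466 to 1569 in controls and 1040 to 1657 in knockouts. At 1 month Prtn3 (1.32 ± 0.21) and Retnlg (1.94 ± 0.24) rose and S100a8 (-1.67 ± 0.47) and Elane (-0.51 ± 0.13) fell (8.94% and 8.1% of all genes), with sums of 601 to 703 and 720 to 926. The calls of S100a8 and Elane were lost in 2 and 1 of 6 fits with 1 array left out. With C/EBPα loss on chow, where the Lcn2 arrays overlapped, 0 of the 11 were called (0.52% of all genes in each direction). The summed signal there was 1995 to 2157 in controls and 2271 to 2856 in knockouts. The difference between the effects on chow called S100a9, Prtn3 and Camp lower (1.16% of all genes). The calls of S100a9 and Camp were lost in 10 and 1 of 12 fits with 1 array left out. The part of neutrophils in the Lcn2 values was not tested. Hepatocyte markers, of which 6 of 10 were below the filter and 0 of 4 called, summed to between 14.0 and 66.9 units in every group. Epithelial, mesothelial, skeletal muscle and lymphocyte markers had 0 called members in these comparisons, with up to 1 higher and 1 lower at an unadjusted p under 0.05 in limma. Stromal markers rose for 3 of 10 after PPARγ loss and 8 of 10 at 1 month, beside 4.36% and 8.94% of all genes, and for 0 in the other comparisons, and 2 of 6 endothelial markers fell at 1 month, beside 8.1%.

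The targeted genes were checked in every array. The Cebpa probe read 568, 616 and 674 in chow controls against 361, 391 and 348 in C/EBPα knockouts, and 48.3%, 21.3% and 7.35% of the corrected signal was left on chow and at 3 days and 1 month of high fat diet. Cebpa was also lower after PPARγ loss, with 37.5% left, so its signal was lower in all 4 knockout groups. After PPARγ loss the 3 Pparg probes did not share a direction, at -1.08, 1.10 and 1.24 (log2), and where they lie relative to the deleted part was not used here. Pparg was also lower with C/EBPα loss. On chow and at 3 days and 1 month of high fat diet, ILMN_1221060 was at -0.23, -0.43 and -0.54. There ILMN_1221893 was at -0.43, -1.18 and -1.59, and every knockout array lay below its controls on both probes. ILMN_1221594 was at -0.01, -0.34 and -0.60, with overlapping arrays on chow and at 3 days.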

How the data were processed

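Per the labels' protocols, RNA was extracted with Trizol, cleaned on RNeasy columns with DNase I and made into biotin-labelled cRNA for Illumina BeadChip arrays. Linear intensity values of 45281 probes make up the deposited table, 1 for each array, still with background. How the authors scanned and normalized the arrays is not given in these sources. The values show quantile normalization by the authors of each set of 6 arrays alone, since sorted values within a set differ by at most 0.705 units. The 96 columns of a second table could not be matched to samples and were not used.

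Groups came from the sample titles. Background per set was estimated from the lower side of the intensity peak, and limma's normexp correction, an offset of 16 and log2 followed. Probes above background (5% false positives) in at least 3 of 24 arrays were kept (32016 probes). Symbols came from the platform annotation (34885 probes with 1 symbol, 18 with several, 10378 not listed), updated through 34807 Entrez identifiers found in RefSeq GRCm38.p6. The brightest probe of a gene was tested, and all 12 probes of the 7 genes passed the filter. The design had assumed the second table, so its first steps were replaced.

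Tests used limma 3.58.1 in R 4.3.3 (lmFit on 8 group means, eBayes, two-sided tests, adjusted over 15195 genes after Benjamini-Hochberg, threshold 0.05), checked on simulated data. A fold against a group at background is a lower bound. Named genes were the 7 genes, Cebpa, Pparg, up to 6 called members of a list per direction by smallest adjusted p, and the 3 genes best correlated with each of the 7. The members, lists and rules were chosen with earlier results of these data known. Alternatives covered background, offset, filter, probe per gene, arrays in the fit, replicate block, weights, trend, normalization, threshold and each array left out. For arrays, their number limits the precision.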

Additional observations from a re-analysis of the deposited data

Results flagged for a closer look

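Several of the 7 genes differed between knockouts because every knockout array lay on the opposite side of its controls in 2 comparisons. None of these differences was tested, and diet or time differs between the comparisons. Saa3 was at -0.80 in the C/EBPα knockout at 1 month of high fat diet and 3.10 after PPARγ loss on chow. Lcn2 was at -1.22 in the C/EBPα knockout at 3 days of high fat diet against 2.12 after PPARγ loss, and at 0.43 at 1 month of high fat diet. The 1 month value of Lcn2 rests largely on knockout replicate 2 and is 0.15 without it. Azgp1 was at -0.32 and -0.58 in the C/EBPα knockouts at 3 days and 1 month of high fat diet against 2.16 after PPARγ loss, its high fat diet signal being near background.

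On chow, where diet and time match, the interaction test in limma called 6 genes of the acute phase and cytokine lists, each with a C/EBPα effect below the PPARγ effect. Of these, Serpina6 (-0.97) was above background in the 3 PPARγ knockout arrays alone and passed the filter through them, so its test is not read. The others were Orm2 (-0.91, adjusted p = 0.0178), Cfb (-0.86, 0.0457), Serpina3n (-1.07, 0.0283), Cd14 (-0.65, 0.0223) and Tnfrsf1b (-0.85, 0.0444). Leaving out 1 of the 12 chow arrays ended the calls of Cfb and Tnfrsf1b in 10 fits each, of Serpina3n in 5 and of Cd14 in 2, and that of Orm2 in 0.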

How the results depend on the processing

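Of 690 recomputed log2 differences of the 7 genes, 650 moved by less than the spread between replicates, and 40 moved further. Signs changed only for differences whose arrays overlapped: Orm1 and Azgp1 on chow, Saa3 at 3 days of high fat diet and Agt. Without background correction the PPARγ differences of Saa3, Lcn2 and Azgp1 were 1.84, 1.22 and 1.10 in place of 3.10, 2.12 and 2.16. Of 210 recomputed counts of calls, 163 stayed within 1.5 times.

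On chow, C/EBPα loss called 158 genes. The count was 285 without background correction, 349 and 67 with offsets of 50 and 4, 274 with every probe tested, 1 with only the 6 arrays of the set, 46 with array weights, 32 with precision weights per set, 83 with quantile normalization over 24 arrays and 33 at an adjusted p under 0.01. Its other acute phase genes went from 0 to 2 without background correction, 1 with offset 50 and 1 with the mean of all probes. PPARγ loss called 598 genes at 0.01. At 3 days of high fat diet 77 genes were called with the set's own arrays, 590 with array weights and 147 at 0.01, and acute phase genes went from 5 to 3 with the mean of probes, 0 with the set's own arrays and 3 at 0.01. At 1 month 3922 probes were called with every probe tested and 1570 genes at 0.01. The difference on chow called 640 genes without background correction, 277 with precision weights and 113 at 0.01, with 0 acute phase genes at 0.01 in place of 4.

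Knockout and control arrays with the same replicate number had deviations from their group means that correlated at -0.25 to 0.09. These values show no strong shared array effect, but cannot exclude that the numbers pair littermates. With the replicate block, calls went from 158 to 57 for C/EBPα loss on chow and from 421 to 200 for the difference, and its acute phase genes from 4 to 2. The cause of these changes was not tested.

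With each array left out, the ranges were 122 to 153 genes (acute phase 0 to 0) for C/EBPα on chow, 667 to 1158 (3 to 6) for PPARγ, 166 to 433 (3 to 4) at 3 days, 1816 to 2380 (8 to 10) at 1 month and 192 to 415 (1 to 4) for the difference. Counts of genes fell by over 1.5 times without PPARγ control replicate 1 or 2 or knockout replicate 2 (829, 667 and 723), and without 3 day high fat diet control replicate 2 or 3 or knockout replicate 1 or 3 (208, 184, 215 and 166). For the difference they did so without PPARγ control replicate 2 or knockout replicate 2 or 3 (192, 235 and 271). Signal near background limits Azgp1 and Saa3, and dim 1 month controls limit the fold of Itih4.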
